A study of Rattus norvegicus with 13 samples.

Results

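The weakened hotspots described here are 1693 windows of 3000 bp with a strong signal of meiotic DNA double-strand breaks (DSBs) in the WKY rat. In the SHR rat their raw score was several times lower, though still above 20. Summed over autosomal windows, raw scores were 4.68 times higher in WKY than in wild-type SHR. Only part of the difference is therefore particular to these windows. Both strains carry the same Prdm9 allele. The windows were chosen by their strengths in the WKY and wild-type SHR libraries, from a table of 96640 windows. Each lies on chromosomes 1 to 20, has a WKY strength of 300 or more and a wild-type SHR strength above 20, and has a WKY strength above 8 times the SHR strength. No other window of the table starts within 3000 bp of it. Of the 91120 autosomal windows, 12483 had a WKY strength of 300 or more, and 9992 of these were isolated in this sense. These 9992 WKY hotspots served as the reference throughout. They divide into the 1693 weakened hotspots (16.9%), 7563 retained hotspots with SHR strength above 20 and a ratio of 8 or less, and 736 near-absent hotspots with SHR strength of 20 or less. A further 520 autosomal windows met the rule on strengths but had a neighbouring window and were left out.

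The table covers 5 libraries, 1 per condition, made from adult testis by single-stranded DNA sequencing (SSDS) of chromatin precipitated with an antibody against DMC1. They come from wild-type WKY, from wild-type BN (BN/RIJHsd), which carries a different Prdm9 allele, and from 3 SHR (SHR/OlaIpcv) genotypes. The SHR genotypes are wild-type, Prdm9+/- (KO/wt) and Prdm9-/- (KO/KO), where Prdm9 was deleted on the SHR background and the KO/KO male was homozygous for a small truncating deletion. The KO/KO male and the wild-type SHR male were littermates, whereas the number of animals behind the other libraries is not given in the sources used here. With 1 library per condition, no difference between strains or genotypes has a replicate check, no p-value is given, and the intervals below are 95% intervals over windows that cover the counting of windows alone.

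PRDM9 is a histone methyltransferase that binds DNA through a zinc-finger array and trimethylates histone H3 on nearby nucleosomes, and in mice and humans the sites it marks are those at which meiotic DSBs are made. The recombinase DMC1 then coats the resected single strands at each DSB, so that sites where DSBs are frequent or long-lived give more DMC1-bound single-stranded DNA. The zinc fingers decide which sequences are bound, and rats with the same array are therefore expected to use overlapping sites, while changes in the bound sequence or in the chromatin around it can alter the use of a single site. No sequence of the windows is printed because the rn5 genome, on which the coordinates are given, was not used here.

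Hotspot strength is a deposited score of unstated scaling, and the WKY library has the highest sum of scores of the 5 libraries. Summed over autosomal windows, strength was 4.68 times higher in WKY than in wild-type SHR. Across the 9256 isolated WKY hotspots with SHR strength above 20, the median WKY to SHR ratio was 4.93. The threshold of 8 is thus 1.62 times this typical ratio, and the term weakened means weaker in SHR than most WKY hotspots, by less than the raw ratio. Among the weakened hotspots the ratio ran from 8.01 to 153, with a median of 10.3, which is 2.09 times the typical ratio. In 775 of them (45.8%) it was 10 or less, and in 200 (11.8%) it was above 16. When each library was divided by its autosomal sum, 18 windows still had a ratio above 8.

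The members lie close to the edges of the rule. The smallest ratios inside it were 8.01 on chr16:72234785-72237785 (strength 553 in WKY and 69 in SHR) and 8.02 on chr13:93503251-93506251 (497 and 62). Just outside, 2 windows on chromosome 1 had a ratio of 8, chr1:13562123-13565123 with 320 and 40 and chr1:167579688-167582688 with 392 and 49. A ratio up to 8.5 was found in 246 weakened hotspots, against 293 retained hotspots with a ratio of at least 7.5. Along the SHR axis, 26 members had a strength of 21, such as chr1:13550862-13553862 and chr4:170413945-170416945, and 30 windows of the reference set had 20, such as chr1:189880479-189883479 and chr1:250405687-250408687. The WKY limit fell between chr4:11215638-11218638 and chr4:187894567-187897567, each at 300, and chr1:103423648-103426648 and chr2:73084140-73087140, each at 299 with a ratio above 8. The members therefore form the upper side of a continuous spread of WKY to SHR ratios, as the plot of SHR against WKY strength shows.

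**Figure D1:**
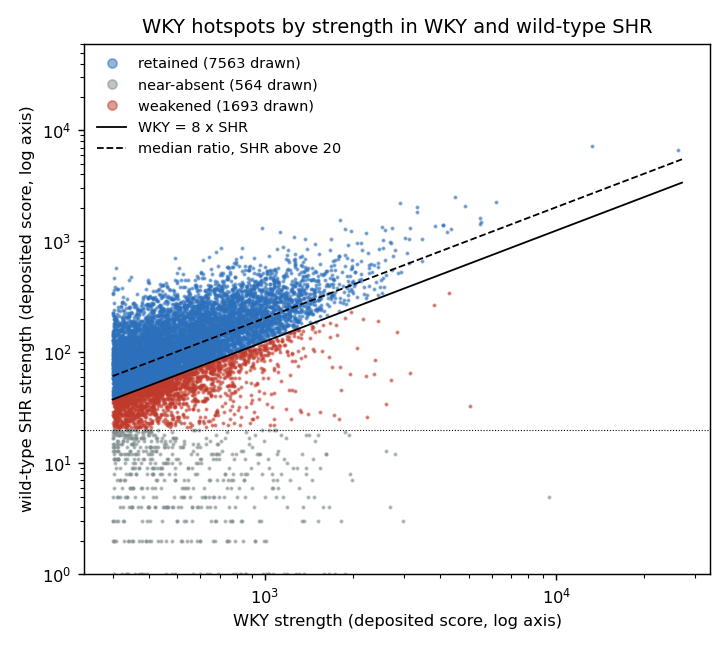
Wild-type SHR strength against WKY strength for the isolated autosomal WKY hotspots, both as deposited scores on log axes, with 1 point per window. The weakened hotspots fill the area below the line of ratio 8 and above an SHR strength of 20 with no gap on either side. The 172 near-absent hotspots with an SHR strength of 0 or less cannot be drawn on a log axis.

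Weakened hotspots were strong WKY hotspots and weak SHR hotspots. Their WKY strengths ran from 300 to 5059 with a median of 462, above 81.2% of the 34872 autosomal hotspots called in WKY. Their wild-type SHR strengths ran from 21 to 342 with a median of 43, above 22.1% of the 19898 autosomal hotspots called in SHR. These columns were used to choose the windows and are given as a description. The KO/wt library played no part in the choice, and there the strengths ran from -54 to 686 with a median of 42 (interval 40 to 43), above 24.0% of the 19643 autosomal KO/wt hotspots. Retained hotspots had medians of 506, 127 and 129 (126 to 133) in WKY, wild-type SHR and KO/wt. Near-absent hotspots had medians of 461, 6 and 7 (6 to 8) in the same libraries. Weakened hotspots thus stood between the other classes in both SHR libraries with functional Prdm9, while the WKY medians of the 3 classes lay between 461 and 506.

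In the libraries without this allele the weakened hotspots were close to silent. KO/KO strength ran from -97 to 465 with a median of 3 (3 to 3), and BN strength ran from -28 to 1646 with a median of 9 (8 to 9). The medians were the same in the retained hotspots, at 3 in KO/KO and 9 in BN. Of the 1693 weakened hotspots, 9 were called as hotspots in KO/KO, which is 0.532% (0.280 to 1.01%) against 0.48% of all 9992 WKY hotspots. In BN 47 were called, 2.78% (2.09 to 3.67%) against 2.13%. Neither share stood apart from its background.

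**Figure D2:**
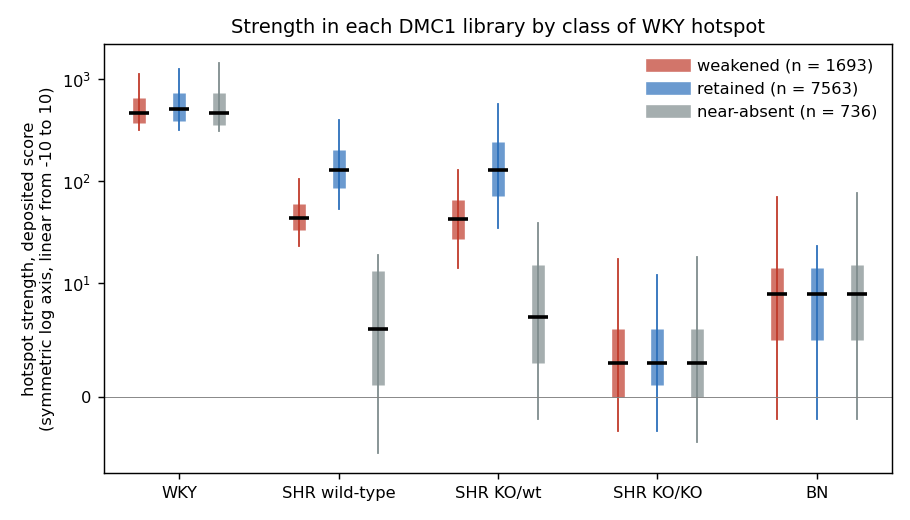
Hotspot strength in each of the 5 DMC1 libraries for weakened, retained and near-absent WKY hotspots, as the deposited score on a symmetric log axis. Black ticks are medians, thick bars the middle 50% of windows and thin lines the 5th to 95th percentile. Weakened hotspots lie between the other classes in wild-type SHR (median 43) and KO/wt (median 42) and share their medians of 3 in KO/KO and 9 in BN. Their BN line reaches 69.4, against 23 for retained and 75.8 for near-absent hotspots.

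Calls in KO/wt, which the rule did not use, were less frequent at these windows than at retained hotspots. All but 8 of the weakened hotspots were called in WKY, and 7 of these 8 were called in BN. In wild-type SHR 1329 were called, or 78.5%, against 86.6% of all WKY hotspots of the set and 96.6% of the retained ones, a difference that follows from the choice of windows by SHR strength. In KO/wt 1121 were called, or 66.2% (63.9 to 68.4%), against 82.7% of the set and 93.8% of the retained ones (93.2 to 94.3%). These KO/wt shares are not matched for SHR strength. Above 40 and up to 60 in wild-type SHR, KO/wt calls were about as frequent in weakened (73.5%) as in retained hotspots (74.3%). Both SHR libraries had a call in 1038 windows (61.3%), wild-type alone in 291 (17.2%), KO/wt alone in 83 (4.90%) and neither in 281 (16.6%). Among retained hotspots both libraries had a call in 93.7%. A window can therefore be weakened by its strength and still lack a call in SHR. The 364 members without a call in wild-type SHR had a median SHR strength of 29, against 47 for the called members.

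The KO/wt library, in which SHR has 1 functional Prdm9 copy, gave a second SHR reading of each window. At 1315 of the 1693 weakened hotspots the WKY strength was also above 8 times the KO/wt strength. This share of 77.7% (75.6 to 79.6%) compares with 32.9% of all WKY hotspots of the set, 16.6% of the retained hotspots (15.8 to 17.5%) and 96.6% of the near-absent ones (95.03 to 97.7%). The ratios to KO/wt and to wild-type SHR share the WKY library, so that a WKY strength that is high by counting error enters both. In the other 378 weakened hotspots (22.3%) KO/wt did not repeat the ratio of 8. The share rose with the ratio in wild-type SHR, from 69.2% (65.8 to 72.3%) of the hotspots with a ratio up to 10, through 82.2% (79.2 to 84.8%) between 10 and 16, to 94.5% (90.4 to 96.9%) above 16. Part of this rise is built in. The further a hotspot lies above 8 in wild-type SHR, the larger the gain in KO/wt that would bring it to 8.

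The KO/wt strengths of the 3 classes were also compared at equal WKY strength. The bands and the classes both use the WKY score, so this does not remove a shared error in WKY. Within each of 6 bands of WKY strength, the median KO/wt strength of weakened hotspots was below that of retained hotspots and above that of near-absent ones. From 300 to below 400 in WKY, the KO/wt medians were 31 (28 to 33) in 567 weakened, 73 (71 to 76) in 2245 retained and 11 (9 to 13) in 270 near-absent hotspots. From 500 to below 700 they were 51 (46 to 54), 138 (133 to 143) and 5.5 (4 to 6). From 1000 to below 1500 they were 104.5 (88 to 119), 314.5 (293 to 333) and 5 (3 to 7). The intervals of the 3 classes did not overlap in any of these bands. As a fraction of the retained median, the weakened median was 0.425 in the lowest band and 0.332 from 1000 to below 1500. From 1500 upwards it was 0.128, where 31 weakened hotspots had a KO/wt median of 74 with a wide interval of 37 to 163.

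**Figure D3:**
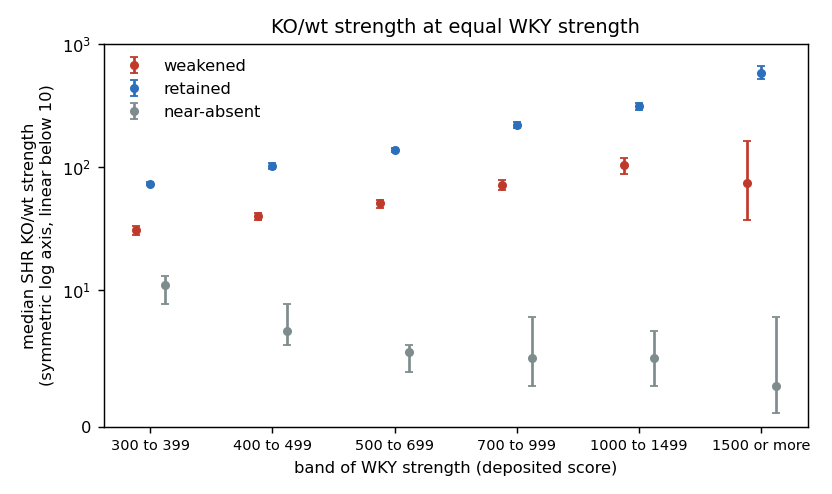
Median SHR KO/wt strength of weakened, retained and near-absent hotspots within bands of WKY strength, as deposited scores on a symmetric log axis, with 95% order-statistic intervals over windows. The 3 classes stay apart in every band, from 31, 73 and 11 below 400 to 74, 577 and 3 at 1500 or more.

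Site by site, KO/wt strength followed wild-type SHR strength. The ratio of KO/wt to wild-type SHR strength had a median of 0.941 (0.917 to 0.969) in weakened hotspots and 1.02 (1 to 1.03) in retained hotspots. The autosomal sum of KO/wt was 1.24 times that of wild-type SHR, and with both divided by their sums the medians were 0.762 and 0.823. KO/wt lay within a factor of 2 of wild-type SHR in 1394 weakened hotspots, 82.3% (80.4 to 84.1%), against 89.1% (88.3 to 89.7%) of the retained ones. It was below 1/2 in 190 members (11.2%) and above 2 times in 109 (6.44%). The middle 90% of ratios ran from 0.385 to 2.11, compared with 0.471 to 1.97 in retained hotspots. Across the 1693 weakened hotspots the Spearman correlation of both libraries was 0.623. This is a description across windows of 2 libraries of 1 strain, over a range of SHR strength that the rule cuts short, and it was 0.862 across the 7563 retained hotspots, whose range is wider.

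At a given SHR strength, weakened hotspots had about the KO/wt strength of retained hotspots although their WKY strength was higher. Above 40 and up to 60 in wild-type SHR, 533 weakened hotspots had a KO/wt median of 44 (42 to 47) and 677 retained hotspots 43 (42 to 46), with WKY medians of 466 and 343. Above 80 and up to 120 the KO/wt medians were 92 (83 to 103) and 90 (88 to 93), with WKY medians of 902 and 461. Above 120 and up to 200 the weakened hotspots were lower in KO/wt, at 131 (118 to 145, 44 windows) against 160 (155 to 164). In the lowest band, above 20 and up to 30, the set has no retained hotspots, and hotspots called in WKY with a strength under 300 served for comparison. There the KO/wt median was 26 (25 to 28) in 346 weakened hotspots and 19 (18 to 19) in 3292 weaker WKY hotspots, and a KO/wt hotspot was called in 38.4% (33.5 to 43.7%) against 17.4% (16.2 to 18.8%). In this band the weakened hotspots were thus stronger and more often called in KO/wt than the weaker WKY hotspots. Against retained hotspots the KO/wt call shares were close, at 73.5% and 74.3% above 40 and up to 60. They were 86.9% and 89.7% above 60 and up to 80, and 96.2% and 95.9% above 80 and up to 120.

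**Figure D4:**
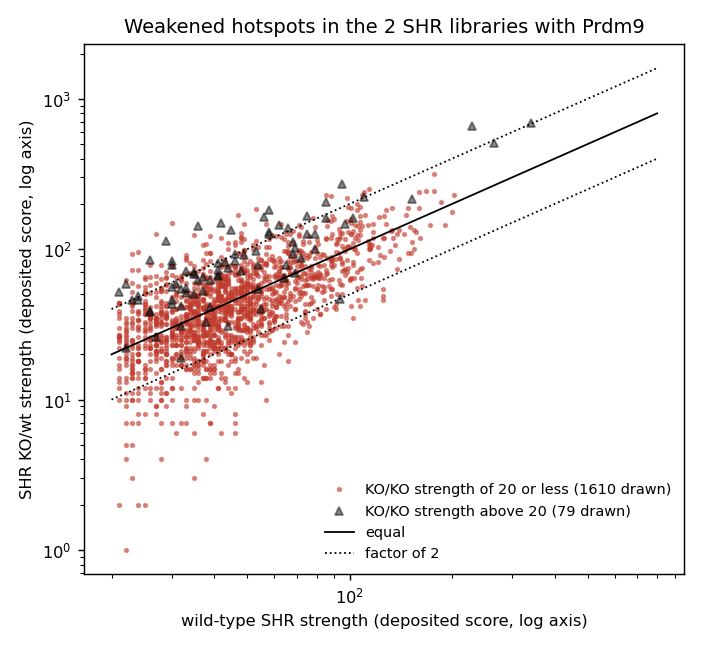
SHR KO/wt strength against wild-type SHR strength at the weakened hotspots, as deposited scores on log axes, with lines for equal strength and for a factor of 2. Most points lie between the dotted lines, and the 79 windows with KO/KO strength above 20 (black triangles) have a median ratio of 1.72; 4 windows with a KO/wt strength of 0 or less cannot be drawn.

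The members that departed most from this relation had wild-type SHR strengths of 23 to 48, beside a median of 43 over all members. The highest ratio of KO/wt to wild-type SHR was 5 on chr1:55673719-55676719, with strengths of 372, 30, 150, 1 and 13 in WKY, wild-type SHR, KO/wt, KO/KO and BN. Next came chr1:37741569-37744569, with 477, 27, 126, 5 and 12 in this order of libraries, which is kept below, and chr2:236622551-236625551, with 472, 23, 93, -1 and 3. At these 3 sites KO/wt was 4.04 to 5 times wild-type SHR. The lowest ratios came from KO/wt strengths below 0. On chr4:206305350-206308350 the strengths were 477, 48, -54, -4 and 8, although a hotspot was called there in KO/wt. The others were chr4:33112191-33115191, with 327, 23, -12, 13 and 51, and chr2:136922641-136925641, with 1722, 27, -1, -9 and 5. A strength below 0 and a call in the same library at the same window limit how far a single score can be read.

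The 5 members with the largest ratio of WKY to SHR had strengths of at most 38 in KO/wt. The highest ratio, 153, was on chr2:134263332-134266332, which is also the strongest member in WKY, with strengths of 5059, 33, 33, 11 and 143. It was called in WKY alone. On chr9:84598201-84601201 the ratio was 85.8, with 2231, 26, 38, 2 and 5, and a hotspot was called in WKY and in both SHR libraries. On chr7:65329062-65332062 it was 76.8, with 2611, 34, 16, 7 and 14, called in WKY and wild-type SHR. The ratio was 72 on chr3:100502629-100505629, with 1800, 25, 16, 5 and 9. The site chr2:136922641-136925641, named above for its KO/wt strength below 0, had a ratio of 63.8. Among the 5 strongest members in WKY, chr16:84725244-84728244 had 3154, 65, 37, 3 and 6, and was called in WKY, wild-type SHR and KO/wt. These sites were close to background in KO/KO, and in BN too, apart from the 143 on chromosome 2.

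The remaining strong members had another profile, with signal in all 5 libraries. The window chr1:58043592-58046592 had strengths of 4284, 342, 686, 462 and 1529, and was called in WKY alone. On chr12:5494137-5497137 the strengths were 3813, 265, 507, 465 and 964, and on chr13:35718754-35721754 they were 2839, 153, 214, 117 and 462, again called in WKY alone. The window chr2:216835174-216838174, with 1966, 229, 656, 188 and 1646, had the highest BN strength of the members and was called in every library except WKY. These 4 sites include the 3 highest members in wild-type SHR, and all 4 were also strong in KO/KO and BN.

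Strength above 20 in all 5 libraries was found in 71 weakened hotspots, 4.19% (3.34 to 5.26%), and in 45 retained hotspots, 0.595% (0.445 to 0.795%). The cutoff was applied after these windows had been seen. Their median strengths were 606, 44, 79, 43 and 145. Of the 71, 65 were called in WKY, 11 in BN and 5 in wild-type SHR, while KO/wt and KO/KO had 4 each. Relative to wild-type SHR in the same window, the median strength was 12.7 times in WKY, 3.41 times in BN, 1.76 times in KO/wt and 1.09 times in KO/KO. With the condition on KO/KO alone, 79 members were above 20 (4.67%, 3.76 to 5.78%, against 1.28%, 1.05 to 1.56%, of retained hotspots). Near-absent hotspots had a similar share, 32 of 736 (4.35%, 3.10 to 6.07%), so this signal was not particular to the weakened class. The 79 members lay on 17 chromosomes, with 12 on chromosome 1, and 19 had another of the 79 within 100 kb. The closest pair of weakened hotspots belongs to them. Its windows, chr9:7384751-7387751 and chr9:7387945-7390945, start 3194 bp apart and had strengths of 460, 46, 93, 26 and 116, and of 460, 32, 54, 37 and 155.

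Without these 79 windows the weakened hotspots kept the pattern described. The other 1614 had median strengths of 459, 43, 40, 3 and 9. Of them, 81.7% were called in wild-type SHR, against 13.9% of the 79. WKY was above 8 times KO/wt in 79.4% (77.3 to 81.3%) of the 1614 and in 43.0% (32.7 to 54.0%) of the 79. In BN, 12.6% of all weakened hotspots (11.1 to 14.3%) and 7.72% of retained hotspots (7.14 to 8.35%) had a strength above 20. The share in near-absent hotspots was 14.1% (11.8 to 16.8%). Among windows with KO/KO of 20 or less the weakened and retained shares were 8.80% (7.51 to 10.3%) and 7.21% (6.64 to 7.81%). The difference in BN strength between weakened and retained hotspots was thus small outside the windows with KO/KO signal.

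Weakened hotspots were found on every autosome, at unequal shares. Counted per WKY hotspot of the set, the share ran from 14.0% on chromosome 4 (98 of 701, 11.6 to 16.7%) to 26.0% on chromosome 12 (50 of 192, 20.3 to 32.7%). Chromosome 17 had 25.2% (93 of 369, 21.04 to 29.9%). Chromosomes 12 and 17 had intervals above the share of 16.9% over all autosomes and chromosome 4 had one below it, while the intervals of the other 17 held it. The KO/wt library, compared with WKY over all windows of each chromosome, had WKY above 8 times KO/wt in 43.8% on chromosome 12, 40.7% on chromosome 17 and 28.8% on chromosome 4, against 32.9% in all. Over windows with SHR above 20, the median ratio of WKY to wild-type SHR was 5.76 on chromosome 12 and 5.67 on chromosome 17. It was 4.73 on chromosome 4, against 4.93 in all. Not every chromosome followed this order. Chromosome 11 had the lowest median ratio, 4.20, with a share of 17.2%. Chromosome 20 had a share of 15.8% (29 of 183) but the highest share of near-absent hotspots, 13.7%, and WKY above 8 times KO/wt in 41.5%.

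Along a chromosome, weakened hotspots tended to follow one another. The next WKY hotspot of the set after a weakened one was itself weakened in 403 of 1691 cases, 23.8% (21.9 to 25.9%). After a retained hotspot it was weakened in 15.1% (14.3 to 16.0%), and after a near-absent one in 19.6% (16.9 to 22.7%). The share over all windows was 16.9%. The neighbours also differed in the KO/wt library. WKY was above 8 times KO/wt in 43.7% (41.4 to 46.1%) of the hotspots that followed a weakened one, and in 29.7% (28.7 to 30.7%) of those that followed a retained one. After a near-absent hotspot the share was 40.7% (37.2 to 44.3%), so a high share was not particular to neighbours of weakened hotspots. Among retained hotspots alone, with a ratio of 8 or less in wild-type SHR, the KO/wt ratio was above 8 in 24.1% (21.7 to 26.7%) after a weakened hotspot and in 15.0% (14.2 to 16.0%) after a retained one. It was 18.8% (15.5 to 22.5%) after a near-absent one. These retained neighbours were not matched for their ratio in wild-type SHR. The median WKY to SHR ratio of the next hotspot with SHR above 20 was 5.84 (5.63 to 6.05) after a weakened, 4.74 (4.66 to 4.81) after a retained and 5.19 (4.93 to 5.43) after a near-absent hotspot. This last ratio includes neighbours that met the rule and uses the same libraries as the rule, so it is a description.

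The share of weakened hotspots fell with distance. Of the WKY hotspots within 50 kb of a weakened hotspot, 25.5% were weakened (204 of 800 pairs, each pair of members counted from both ends). It was 23.6% from 50 to 200 kb, 21.1% from 200 kb to 1 Mb, 20.3% from 1 to 5 Mb and 17.4% from 5 to 20 Mb. The weakened hotspots made 1290 runs of adjacent members, of which 994 were single hotspots, and 699 members (41.3%) stood in runs of 2 or more. The excess over 16.9% was therefore largest at short distance, and 994 members had no weakened hotspot next to them. The bands count pairs, so dense regions weigh more in them than in the 16.9%, which is a share of windows. Near-absent hotspots also had their highest share within 50 kb of a weakened one, 11.4%, against 7.39% from 5 to 20 Mb. A higher share at short distance was thus not particular to the weakened class.

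**Figure D5:**
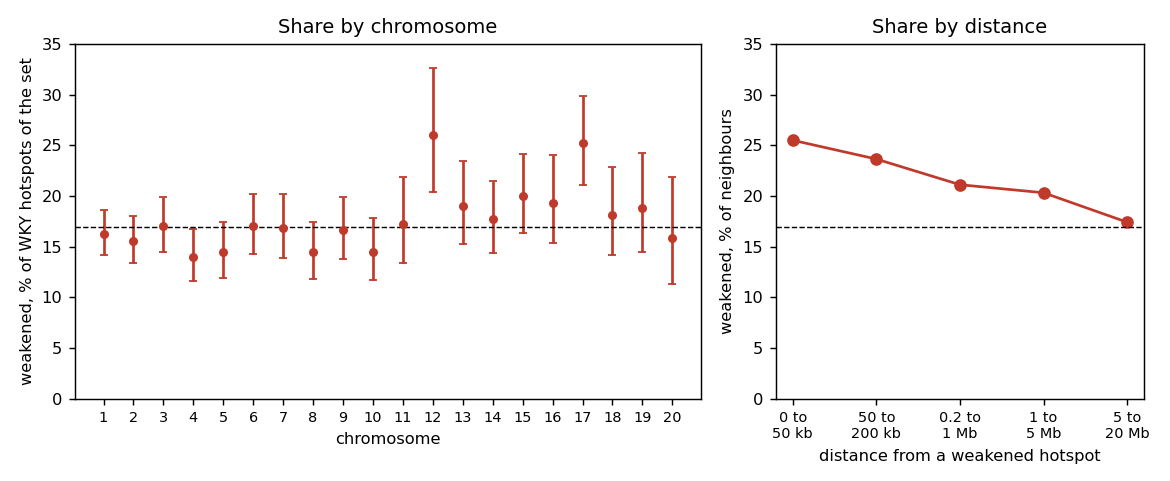
Left, the share of WKY hotspots of the set that were weakened on each autosome, in percent, with Wilson 95% intervals over windows. Right, the percentage weakened among WKY hotspots at a given distance from a weakened hotspot; the dashed lines mark 16.9%, and the share falls from 25.5% within 50 kb to 17.4% between 5 and 20 Mb.

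Weakened hotspots were more frequent where the table has more windows. With the WKY hotspots split into 4 groups of similar size by the number of windows of any library starting within 500 kb, 10.6% (9.50 to 11.8%) were weakened in the sparsest group, with at most 32 such windows. The share was 16.3% in the second group, 20.4% in the third and 21.4% (19.8 to 23.1%) in the densest, with 51 to 133 windows. KO/wt changed in the same way, with WKY above 8 times KO/wt in 21.3% of the sparsest and 40.9% of the densest group. The median WKY to SHR ratio went from 3.94 to 5.53, whereas the share of near-absent hotspots was 6.73% in the sparsest and 7.39% in the densest group. Within each of the 4 groups, a weakened hotspot was followed by another more often than the average hotspot was. After a weakened hotspot the next was weakened in 16.3% of cases in the sparsest group, against 10.5% after any hotspot. The shares were 23.7% against 16.6% in the second group, 26.3% against 20.2% in the third and 25.8% against 21.3% in the densest. The interval in the densest group, 22.2 to 29.8%, lay just above the share after any hotspot, and differences between the groups were not tested.

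The last 10 Mb of the chromosomes, measured from the last window of the table, also had a higher share, 21.4% (176 of 822, 18.7 to 24.3%), against 16.5% (15.7 to 17.3%) between the ends and 17.7% (14.9 to 20.9%) in the first 10 Mb. WKY was above 8 times KO/wt in 45.6% of the WKY hotspots of the last 10 Mb, 31.3% of those between and 37.7% of those of the first 10 Mb. Near-absent hotspots made up 10.1%, 6.99% and 9.02% of the same parts. The nearest KO/KO hotspot was at a median of 24.5 kb from a weakened hotspot (23.0 to 26.1 kb) and 27.6 kb from a retained one (26.6 to 28.7 kb). The nearest BN hotspot was at 38.0 kb (35.1 to 39.8 kb) and 42.6 kb (41.2 to 44.1 kb). Weakened hotspots were thus slightly closer to hotspots of the other libraries, and the part of window density in these distances was not tested.

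Of 532 bins of 5 Mb with a WKY hotspot of the set, 114 had no weakened hotspot and 152 had 5 or more. These 152 bins, chosen for their members, held 1079 of them, 63.7%. The same bins held 4036 of the 9992 WKY hotspots of the set, 40.4%. Of the 252 bins with at least 20 WKY hotspots, 6 had none, and the highest share was 50% (10 of 20), on chromosome 18 from 75 to 80 Mb. On chromosome 3, consecutive bins from 160 to 175 Mb had 14 of 31, 10 of 21 and 11 of 24 WKY hotspots weakened, which are the 3 next highest shares.

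The bin with most members lies on chromosome 16 from 5 to 10 Mb, where 15 of 40 WKY hotspots were weakened, 23 retained and 2 near-absent. The strongest of the 15 in WKY was chr16:6848597-6851597, with 1672, 138 and 74 in WKY, wild-type SHR and KO/wt. Next were chr16:8725336-8728336, with 1211, 128 and 181, and chr16:7407177-7410177, with 902, 97 and 67. Wild-type SHR thus had between 97 and 138 at sites where WKY had 902 or more. The site chr16:6133539-6136539 had 784, 85 and 40 in the same order, chr16:5080876-5083876 had 779, 97 and 74, and chr16:5901233-5904233 had 762, 50 and 13. The last was the lowest of these 6 in both SHR libraries. The site chr16:5411041-5414041 had 625, 76 and 90, chr16:7693557-7696557 had 611, 44 and 25, and chr16:5248550-5251550 had 484, 58 and 36. KO/wt was above wild-type SHR at the first of these and below it at the others. The site chr16:6212521-6215521 had 463, 42 and 49, chr16:6683853-6686853 had 419, 43 and 36, and chr16:6943464-6946464 had 401, 23 and 5. The weakest members in WKY were chr16:7628236-7631236, with 386, 24 and 11, chr16:6609822-6612822, with 351, 29 and 20, and chr16:6743935-6746935, with 347, 41 and 30. KO/wt was below wild-type SHR at 12 of the 15 members and at 20 of the 23 retained hotspots of the bin. Over the whole set it was below at 53.4% of weakened and 48.3% of retained hotspots. KO/KO strength was at most 9 and BN strength at most 17 at the 15 members. The retained hotspots here had a median WKY to SHR ratio of 5.74, above the 4.35 of all retained hotspots.

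The longest run of adjacent weakened hotspots had 6 members on chromosome 1 between 248129544 and 249043498, and was picked out after the values had been seen. Its strongest site, chr1:248887063-248890063, had 1879, 203, 231, 7 and 8. The neighbouring chr1:249040498-249043498 had 907, 104, 100, 11 and 12. The 4 other members, starting at 248129544, 248162454, 248246237 and 248730678, had WKY strengths of 315 to 470, SHR strengths of 25 to 39 and KO/wt strengths of 22 to 51. At 2 of the 6 sites KO/wt was lower than wild-type SHR, unlike in the chromosome 16 bin. WKY was above 8 times KO/wt at all 6. Over all weakened hotspots these shares were 53.4% and 77.7%.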

How the data were processed

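Per the labels, 13 samples were collected, and the deposited table holds values of 5 of them, the DMC1 SSDS libraries. H3K4me3 and input libraries were not analysed here. The authors mapped reads to rn5 with their own version of BWA 0.7.12, picked out fragments of single-stranded origin, and called hotspots from those placed uniquely with high alignment scores; the submitters' processing notes also name bedtools 2.23.0 and MACS2 2.1.0.20150420. Each library has a hotspot strength, which the authors deposited as a score that may be below 0, and a mark of 1 or 0 for a call. How strength was computed and scaled is not given in the sources used here, nor is depth, so that no counting error of a single strength is known. Columns were assigned by strain and genotype.

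Windows were classed with thresholds of 300 (WKY), 20 (SHR), 8 (ratio) and 3000 bp (starts this close or closer removed a window). Shares have Wilson 95% intervals and medians binomial order-statistic intervals; windows are not replicates of a condition. No test between libraries was possible. The members, classes and named windows were chosen with earlier results of these data known. Named windows are extremes of strength or ratio, the windows at the thresholds, the closest pair and the members of the 5 Mb bin with most of them. Values were computed with scipy 1.17.1, pandas 2.3.3 and numpy 2.4.6 in Python 3.11.15, and plots were drawn with matplotlib 3.10.9. On simulated data of 96640 windows, the calculations recovered the known answer in 8 of 8 checks. RefSeq tables of another assembly were not used.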

Additional observations from a re-analysis of the deposited data

How the results depend on the processing

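No paired analysis was possible because each condition had 1 library. Of 53 alternative values for 10 results, 29 stayed within the 95% interval of the reported value, or within 1.5 times it for the number of members, and 24 did not. Restriction to KO/KO of 20 or less and division of KO/wt and wild-type SHR by their sums were added after the data were seen. The first left all 10 results within these limits, and with the second WKY exceeded 8 times KO/wt in 88.2% and the median KO/wt to wild-type ratio was 0.762. The 1693 members became 3314 with a ratio above 6, 546 above 12, 18 with strengths divided by library sums, 936 with SHR above 40 and 724 with WKY of at least 500. With SHR above 40, WKY exceeded 8 times KO/wt in 72.8%, the KO/wt median was 56.5, the Spearman correlation 0.568, and the next hotspot was weakened in 14.7%, with another member within 1 Mb for 64.1%. With WKY of at least 500 these were 61 for the median, 0.670, 20.9% and 60.2%. With a ratio above 12 the last pair were 9.36% and 50.9%, and in members called in wild-type SHR the KO/wt median was 45. These clustering shares move with the number of members. Against the share over all windows under the same setting, the next hotspot after a member was a member 1.41 times as often in the reported setting and 1.40 to 1.72 times as often under the 5 alternatives. Another member lay within 500 kb for 62.3% and within 2 Mb for 93.7%, against 82.4% within 1 Mb. The share in 5 Mb bins with 5 or more members, 63.7% beside 40.4% of all WKY hotspots of the set, moved with the bins. It was 17.7% in 2 Mb bins, 85.2% in 10 Mb bins and 61.3% with bins moved by 2.5 Mb. In addition, 159 members had an SHR strength of 21 to 25, 246 a ratio of 8.5 or less, and the error of a single score is unknown.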

Other observations

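Chromosome X was outside the rule. By the same limits, 168 of its 1143 isolated WKY hotspots (14.7%, 12.8 to 16.9%) would have been weakened and 36 (3.15%) near-absent, and 145 of the 168 were called in wild-type SHR. Their median strengths were 656, 61, 44, 3 and 5.5 in WKY, wild-type SHR, KO/wt, KO/KO and BN. WKY was above 8 times KO/wt in 154 of them, 91.7% (86.5 to 94.97%), compared with 77.7% of the autosomal members. The share over all 1143 X hotspots is not given here, so whether 91.7% is particular to these 168 cannot be told. The typical WKY to SHR ratio on X, among windows with SHR above 20, was 4.34.

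The 520 autosomal windows that met the rule on strengths but had a neighbour within 3000 bp made up 20.9% (19.3 to 22.5%) of 2491 such WKY windows. Of them, 51.5% were called in wild-type SHR, 28.3% had a BN strength above 20 and 13.5% had a KO/KO strength above 20, and WKY was above 8 times KO/wt in 74.2%. Over all 2491 windows these shares were 63.8%, 24.4%, 13.4% and 38.4%.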
